A study of Arabidopsis thaliana with 2 samples.

Results

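BGLU18 (AT1G52400, also named ATBG1) encodes a beta-glucosidase of Arabidopsis thaliana, and it was read here in seeds of reciprocal crosses between the accessions Col-0 and Bur-0. The gene was represented by the windows around Bur-0 single nucleotide polymorphisms (SNPs) that lie on chromosome 1 between 19519151 and 19521900 of the TAIR8 sequence. At least 1 read matched 37 of these windows, out of 147349 windows matched in all. The gene was selected on its maternal matches in these same libraries, so its maternal shares, its level and its calls are descriptions and carry no test.

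Total RNA was taken from F1 seeds at 4 days after pollination (DAP), when the embryos were globular. In Bur-0×Col-0 the mother was Bur-0 and the father Col-0, and Col-0×Bur-0 was the reverse cross, with Col-0 as mother and Bur-0 as father. The mothers were emasculated and pollinated by hand, and the labels name no mutation or transgene in either accession. Each cross was 1 library, made from seeds of many siliques pooled together and sequenced on 4 lanes with reads of 36 nt. No spread between plants can therefore be given, and no test between the crosses was possible. Lanes are repeated readings of a library.

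Beta-glucosidases release a glucose residue from small molecules that are stored as glucosides. BGLU18 is known for hydrolysing the glucose ester of abscisic acid, an inactive store of this hormone, and for residing in ER bodies, which are spindle-shaped compartments derived from the endoplasmic reticulum. A whole seed contains the seed coat, which is maternal tissue with no paternal genome, together with the embryo and the endosperm, which carry both genomes. In the endosperm the mother contributes 2 genome copies and the father 1, and the ratio 2m:1p is therefore the reference against which windows were called. The seed coat and the zygotic tissues were not separated, so a maternal share cannot be assigned to one of them.

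Nearly all BGLU18 reads carried the maternal allele in both directions of the cross. In Bur-0×Col-0 there were 73736 matches to the maternal Bur-0 allele and 27 to the paternal Col-0 allele, so that 99.963% were maternal (Wilson 95% limits 99.947% and 99.975%). The Col-0×Bur-0 library had 62200 matches to the maternal Col-0 allele and 52 to the paternal Bur-0 allele, so that 99.917% were maternal (Wilson 95% limits 99.891% and 99.936%). Both shares were above those of the libraries as a whole, in which 95.4% of the matches with the Bur-0 mother and 93.2% with the Col-0 mother were maternal. As the libraries carried no molecular identifiers, reads can be copies of one molecule, so these and all later intervals cover counting error only. In such bulk RNA, fewer cells of a type and less RNA per cell cannot be told apart.

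BGLU18 made up 0.860% of all matches with the Bur-0 mother and 0.919% with the Col-0 mother. Its maternal level was 8597 per 1000000 of the 8576779 matches of Bur-0×Col-0 and 9183 per 1000000 of the 6773239 matches of Col-0×Bur-0. The log2 ratio of these levels was -0.10, with an interval of -0.11 to -0.08 from counting error. For comparison, the 34959 windows that had 20 or more matches in each of the crosses had a median log2 ratio of -0.34, with quartiles of -0.81 and 0.21. The median thus stood below 0. It is a value of single windows, and the 17 BGLU18 windows of that depth had a median of -0.12. Among the summed counts of placed loci, as given below, BGLU18 lay in the middle. Without scaling, or divided by the median ratio of the 34959 windows, the log2 ratio of BGLU18 was 0.25. The sign of the difference between the crosses was thus set by the scaling.

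The lanes of one cross gave nearly the same level. In Bur-0×Col-0 the 4 lanes held 8620, 8570, 8657 and 8524 maternal BGLU18 matches per 1000000 matches. In Col-0×Bur-0 they held 9144, 9227, 9113 and 9275 per 1000000, and the lanes of the 2 crosses did not overlap. As lanes are repeated readings of 1 library per cross, this shows counting precision only. In both crosses lanes 1 to 3 were run on one sequencer and lane 4 on another. On the first sequencer alone the log2 ratio was -0.09, and on the second it was -0.12.

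The paternal matches were few in every lane. In Bur-0×Col-0 the lanes had 11, 8, 5 and 3 paternal Col-0 matches, between 0.0203% and 0.0572% of the gene. In Col-0×Bur-0 they had 23, 14, 10 and 5 paternal Bur-0 matches, between 0.0416% and 0.137%. The ranges of the crosses overlapped, and lane 1 was the highest in both crosses.

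The matches were spread over the gene in a small number of deep windows. The 21 windows with at least 100 maternal matches over both crosses held 99.9% of the maternal matches of either cross. The other 16 windows had between 0 and 51 maternal matches over both crosses. Whether a window lies in an exon, an intron or an untranslated region was not annotated, since no TAIR8 annotation was used here. The widest gap between neighbouring deep windows was 495 nt and separated a first block of 11 windows from a second block of 10 windows. The first block began 868 nt from the first matched SNP of the gene and ended at 1526 nt, and the second ran from 2021 to 2501 nt. Windows are named below by this distance of their SNP.

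**Figure D1:**
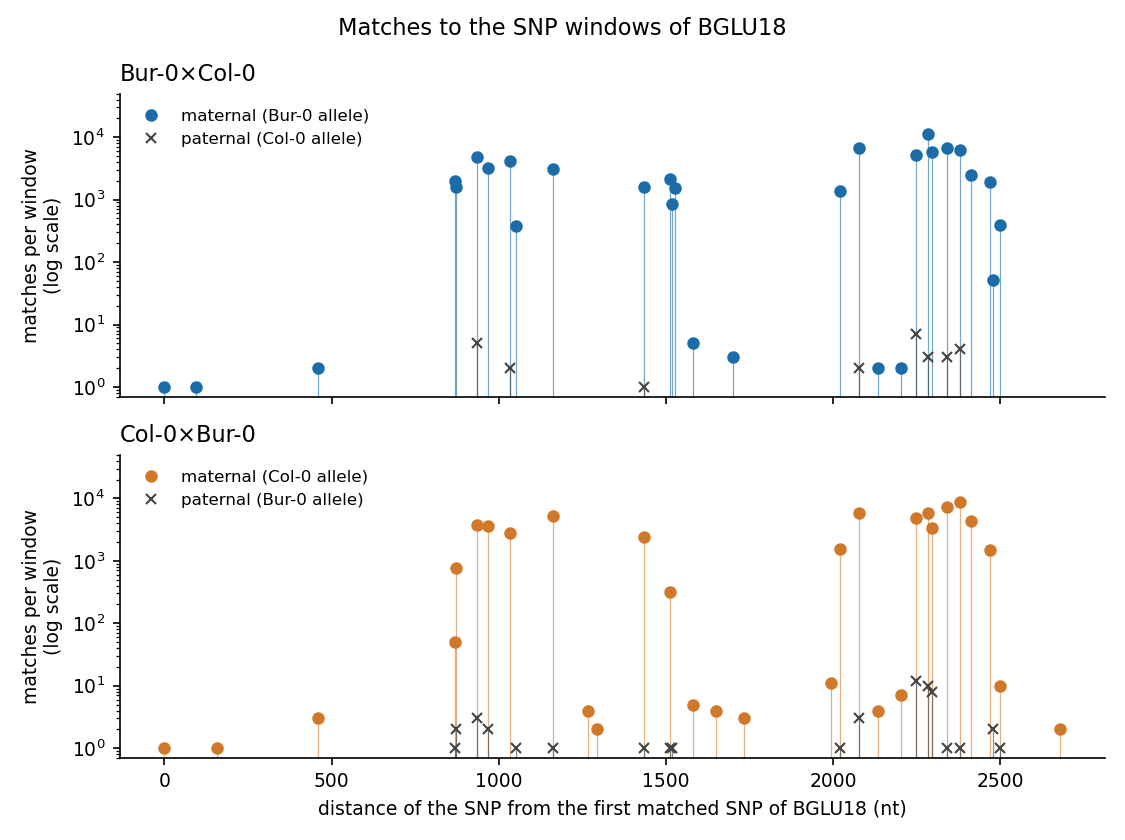
Matches per SNP window of BGLU18 on a log scale against the distance of the SNP from the first matched SNP of the gene, with Bur-0×Col-0 above and Col-0×Bur-0 below (1 library each). Filled points are maternal matches and crosses are paternal matches, windows without a match are not drawn, and the 21 deep windows form 2 groups separated by 495 nt with paternal matches of at most 12 per window.

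The deepest window of the gene with the Bur-0 mother was that at 2284 nt, which starts at 19521435, where 11388 matches were maternal and 3 paternal. The same window had 5842 of the mother and 10 of the father in the reverse cross Col-0×Bur-0. By its maternal count in Bur-0×Col-0 it ranked 27th of all 147349 windows. In Col-0×Bur-0 the deepest window was that at 2380 nt, which starts at 19521531. With the Bur-0 mother it had 6138 matches of the mother and 4 of the father, and with the Col-0 mother 8762 and 1, where it ranked 28th. The crosses thus peaked at different windows of the same gene. At 2284 nt the maternal allele was matched at 36 starts with the Bur-0 mother and at 12 with the Col-0 mother. Of its maternal Bur-0 matches, 29.0% came from reads listed at more than 1 window. At 2341 nt, with 36 starts in both crosses, there were 6697 and 7303 maternal matches. The part of read matching in the different peaks was not tested.

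Each window was tested against 2m:1p with a one-sided exact binomial test in each cross, the larger p was squared, and the q-value was taken over all windows. Of the 147349 windows, 32.1% were called maternal, at a q of at most 0.05. Of the 37 BGLU18 windows 18 were called, a count that the selection of the gene prepared and from which nothing is read. All 17 BGLU18 windows with 20 or more matches in each of the crosses were called, as were 91.9% of all windows of that depth. At no BGLU18 window did the father's allele exceed the mother's in both crosses, and the uncalled windows had few matches or none of the maternal Col-0 allele with the Col-0 mother.

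Several deep windows had maternal matches almost only of Bur-0. The windows at 1051, 1517 and 1526 nt had 374, 866 and 1511 maternal Bur-0 matches with the Bur-0 mother, against 0 maternal Col-0 matches each with the Col-0 mother. At 868 nt there were 1985 maternal matches with the Bur-0 mother and 50 with the Col-0 mother, and at 2501 nt there were 388 and 10. All of these windows had another matched SNP within 35 nt. Of all 24328 windows with at least 100 maternal matches, 973 (4.00%) had none of Col-0 and 150 (0.617%) had none of Bur-0.

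The crosses also differed in the number of SNPs inside the matched reads. In Col-0×Bur-0 all 62200 maternal matches covered 1 matched SNP, and 0 covered 2 or more. In Bur-0×Col-0, 53029 maternal matches covered 1 matched SNP, 17909 covered 2 and 2798 covered 3. Of the 20707 that covered 2 or more, 10241 came from reads that were listed at more than 1 window of the gene. The 73763 BGLU18 matches of Bur-0×Col-0 thus came from 68556 reads, whereas the 62252 matches of Col-0×Bur-0 came from 62252 reads. This feature was not particular to BGLU18. Reads listed at several windows gave 13.9% of its maternal matches with the Bur-0 mother, and 14.3% of those of the whole library. With the Col-0 mother they gave 0 of the maternal matches of BGLU18 and 0.278% of those of the whole library. The part of the matching rules in this difference was not tested.

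**Figure D2:**
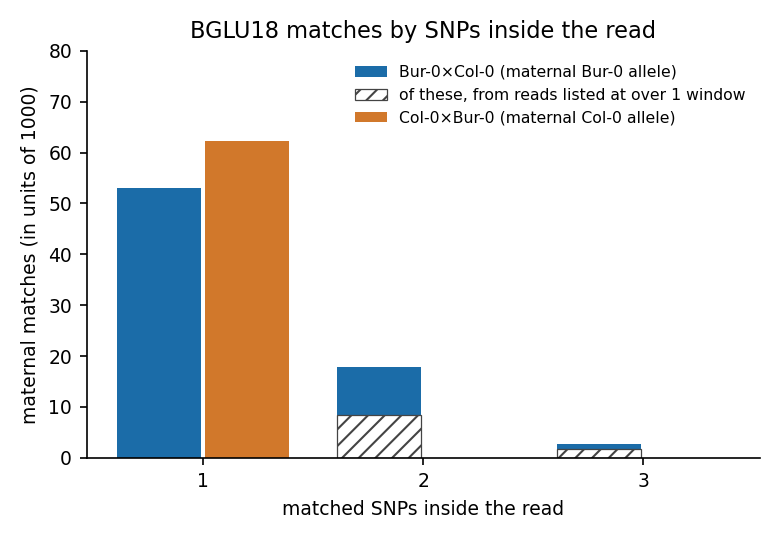
Maternal BGLU18 matches (in units of 1000) by the number of matched SNPs covered by the read, with Bur-0×Col-0 to the left of Col-0×Bur-0 in each pair (1 library each) and the hatched part from reads listed at more than 1 window. Reads with 1 SNP gave 53029 matches with the Bur-0 mother and 62200 with the Col-0 mother, and only Bur-0×Col-0 had maternal matches with 2 or 3 SNPs.

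Among reads that covered 1 matched SNP, which were listed for both alleles, the level was lower with the Bur-0 mother. There were 53029 maternal matches with the Bur-0 mother and 62200 with the Col-0 mother, a log2 ratio of -0.57 per 1000000 matches of the library. This ratio has its gene counts restricted and its library totals unrestricted. With both gene and totals restricted to windows free of a further matched SNP within 35 nt, the log2 ratio was -0.10, and with each read counted once in both it was also -0.10. The 5 deep windows free of a further matched SNP within 35 nt held 23313 maternal matches with the Bur-0 mother and 25546 with the Col-0 mother, and their median log2 ratio was -0.47. The 24535 such windows of the whole series had a median of -0.50. The 16 deep windows with a close SNP had 50356 maternal matches with the Bur-0 mother and 36607 with the Col-0 mother, with a median log2 ratio of 0.26 where both counts were above 0. The 10424 windows of the series with a close SNP and 20 or more matches in each cross had a median of 0.24. The BGLU18 medians thus stood close to those of the series, although the depth minimums differ. Its single windows with a close SNP varied widely, from -1.12 at 2414 nt to 4.97 at 868 nt. The BGLU18 window at 2501 nt, with 388 and 10 maternal matches, would not reach the minimum used for the series. The median of 0.26 includes it.

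The reads that covered 1 SNP began at largely the same places in both crosses. Taking a place as a start and an orientation, 817 places were matched by the maternal allele in BGLU18, and 680 of them (83.2%) in both crosses. Over these 680 places the log2 counts of the crosses had a Pearson correlation of 0.87, given as a description, since places in one gene share their library and base composition. The count per 1000000 was lower with the Bur-0 mother at 472 places and higher at 208, with a median log2 ratio of -0.43 and quartiles of -1.08 and 0.17. These counts were restricted to reads with 1 matched SNP, while the library totals were not. The 472 against 208 places and the median are therefore not read as a difference between the crosses. In the windows at 1436, 2078, 2248 and 2341 nt, all 36 possible starts were used in both crosses. Reads in direct orientation made up 46.6% of the maternal matches with the Bur-0 mother and 48.3% with the Col-0 mother, so the counts do not distinguish the strand of the transcript.

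**Figure D3:**
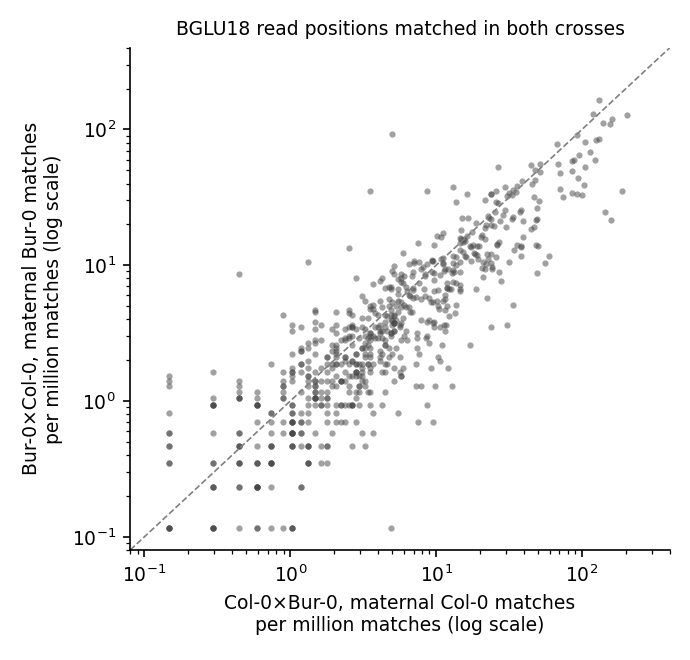
Maternal BGLU18 matches per 1000000 matches at each of the 680 read places (a start and an orientation in a window) that were matched in both crosses, for reads covering 1 matched SNP. The library totals used for scaling were not restricted to such reads. The vertical axis is Bur-0×Col-0 and the horizontal axis is Col-0×Bur-0, both on log scales, each point is a place, and the dashed line marks equal values, with 472 places below it and 208 above it.

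Many reads shared their start. In Bur-0×Col-0, 3816 combinations of window, start, orientation and lane gave the 73736 maternal matches, 19.3 matches per combination, and with the Col-0 mother 2759 gave 62200, or 22.5 per combination. Over the whole libraries the mean was 3.13 with the Bur-0 mother and 3.005 with the Col-0 mother. Counting each combination once left a paternal share of 0.703% with the Bur-0 mother and 1.43% with the Col-0 mother. The number of possible starts limits the maternal allele more than the paternal allele in such counting.

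The paternal matches were distributed over the gene as follows. In Bur-0×Col-0 the 27 paternal Col-0 matches lay in 8 windows and at 23 places, of which the most frequent had 3 matches. In Col-0×Bur-0 the 52 paternal Bur-0 matches lay in 18 windows and at 33 places, and 1 place in the window at 2248 nt had 11 matches and 1 place in the window at 2284 nt had 7. The windows at 2248, 2284 and 2296 nt, taken because they had the most paternal matches with the Col-0 mother, had 12, 10 and 8 of them. With the Bur-0 mother, 37.0% of the paternal BGLU18 matches fell in these 3 windows, beside 30.5% of the maternal ones. With the Col-0 mother, 57.7% of the paternal matches fell there, beside 22.7% of the maternal ones. Their paternal share with the Col-0 mother was 0.212%, and that of the other windows was 0.0457%.

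Restricted to reads with 1 matched SNP, the paternal shares of the crosses were closer. There were 27 paternal of 53056 matches with the Bur-0 mother, or 0.0509% (95% Wilson interval 0.0350% to 0.0740%), and 38 of 62238 with the Col-0 mother, or 0.0611% (0.0445% to 0.0838%). The intervals overlapped. Without lane 1 of Col-0×Bur-0, which stood apart as described below, the share with the Col-0 mother was 0.0462% (21 of 45479). That is below the 0.0509% of Bur-0×Col-0, which kept its own lane 1 with 11 of its 27 paternal matches. Over all matches, the share without lane 1 of Col-0×Bur-0 was 0.0638% with the Col-0 mother, above the 0.0366% with the Bur-0 mother. The order of the crosses in reads with 1 matched SNP was thus not settled. Besides the 38 paternal Bur-0 matches with 1 matched SNP, 14 in Col-0×Bur-0 covered 2 or more SNPs. Of these, 0 came from reads listed at several windows, whereas 10241 of the 20707 maternal Bur-0 matches with 2 or more SNPs with the Bur-0 mother did. The origin of these 14 matches was not tested.

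Lane 1 of Col-0×Bur-0 stood apart from the other lanes in where the reads lay. In Bur-0×Col-0 the first block of deep windows held 34.2%, 34.3%, 34.9% and 34.8% of the maternal BGLU18 matches of lanes 1 to 4. In Col-0×Bur-0 it held 21.4% in lane 1, and 33.4%, 32.8% and 35.1% in lanes 2 to 4. As the blocks together held nearly all maternal matches, the second block had a higher share in lane 1 by construction. The sum of the gene did not show the difference.

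Among the 16 windows with 20 or more maternal matches in every lane of Col-0×Bur-0, that at 934 nt had the lowest share in lane 1 relative to lane 2. Its share of the maternal matches of a lane was 6.64%, 6.54%, 6.66% and 6.60% in lanes 1 to 4 of Bur-0×Col-0. In Col-0×Bur-0 it was 1.90% in lane 1, and 7.59%, 7.40% and 8.05% in lanes 2 to 4. At 967 nt lane 1 of Col-0×Bur-0 had 2.23%, and the other lanes 6.74%, 6.73% and 7.75%. In the second block, at 2414 nt, lane 1 of Col-0×Bur-0 had 9.20%, above the 6.10%, 6.33% and 5.95% of lanes 2 to 4.

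Over these 17 BGLU18 windows of sufficient depth, the counts of lane 1 of Col-0×Bur-0 were dispersed against each of the other lanes by 83.0 to 104 times the sampling noise (chi-square per degree of freedom). Between the other lanes of that cross it was 0.613 to 4.95 times, and between the lanes of Bur-0×Col-0 0.672 to 1.89 times. The dispersion grows with depth, and over all 34959 windows of this depth it was 6.23 to 6.78 times for lane 1 of Col-0×Bur-0 and 0.988 to 1.20 times for the other pairs of a cross. Lane 1 was thus different in the whole library. Of all its matches 6.24% were paternal, against 7.05% to 7.09% in lanes 2 to 4, so BGLU18, with its highest paternal share in lane 1, went the other way. Without lane 1, the first block had 2970 maternal matches per 1000000 with the Bur-0 mother and 3092 with the Col-0 mother, a log2 ratio of -0.06, against 0.09 with all lanes. In the second block the log2 ratio was -0.12 without it and -0.19 with all lanes. The paternal share of Col-0×Bur-0 was 0.0638% without lane 1 (29 of 45487 matches), and the log2 ratio of the gene remained at -0.10.

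**Figure D4:**
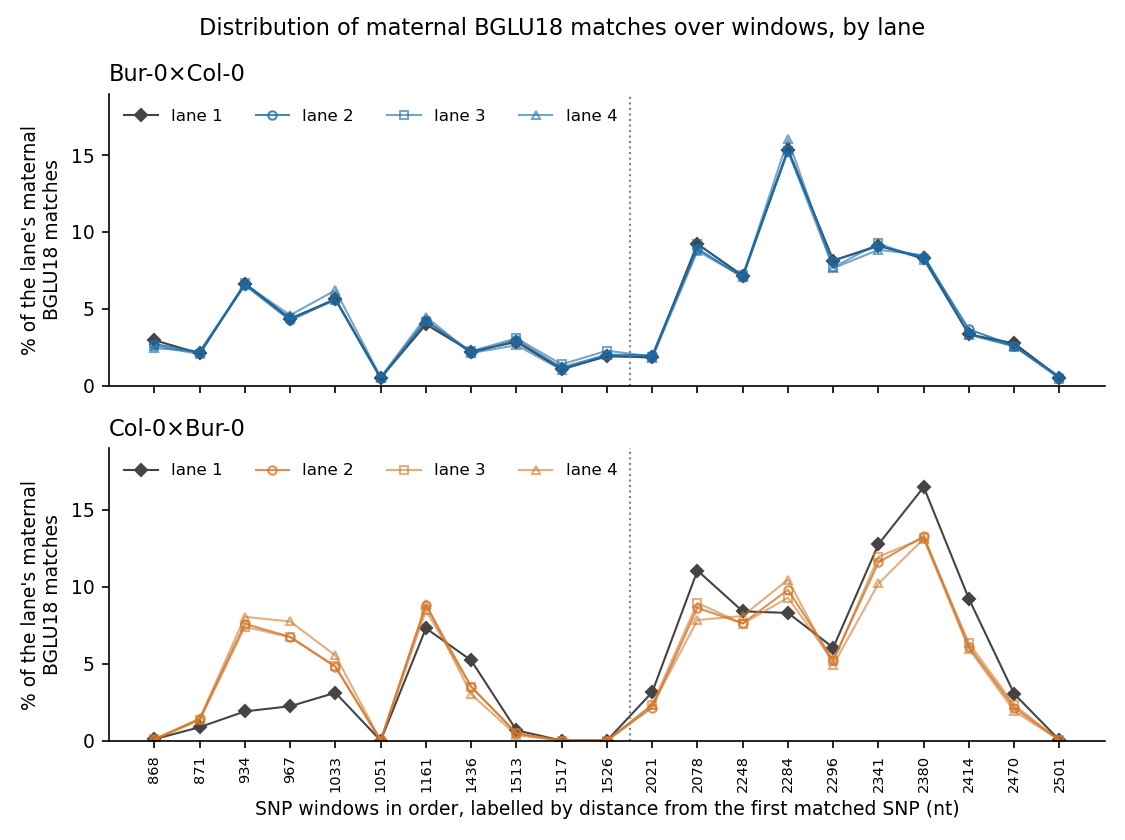
Share of the maternal BGLU18 matches of a lane that fell in each of the 21 deep windows, in order along the gene and labelled by distance in nt, with Bur-0×Col-0 above and Col-0×Bur-0 below. Each line is a lane, lane 1 is dark, and the dotted line separates the blocks, in the first of which lane 1 of Col-0×Bur-0 held 21.4% and the other 7 lanes 32.8% to 35.1%.

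To compare BGLU18 with other genes, loci were placed on the windows by the counts that the study lists for them, which placed 2026 of 2147 loci. The copy of the maternal list that was read holds only its first part, ordered by q-value, and most of the loci on that list were not used here. The 2147 loci are thus those with the lowest maternal q-values, together with shorter lists of maternally and of paternally biased genes. They are no sample of all genes. Ranks, medians and counts over placed loci hold for these loci only, and a gene given below as not placed may stand in the part that was not used. By the sum of its matches BGLU18 was the 5th of the placed loci, behind GILT, BAN, LTP6 and LDOX. GILT, a thiol reductase gene, had 410527 maternal and 113 paternal matches with the Bur-0 mother, and 207591 and 464 with the Col-0 mother. BAN, the anthocyanidin reductase gene of proanthocyanidin synthesis, had 146101 maternal and 70 paternal matches with the Bur-0 mother, and 94972 and 105 with the Col-0 mother. LTP6, a lipid transfer protein gene, had 126272 and 1883 with the Bur-0 mother, and 92284 and 30 with the Col-0 mother. LDOX is given with the nearest loci. Of the 819 placed loci with at least 1000 matches in each cross, 50 had a lower paternal share than BGLU18 with the Bur-0 mother and 54 with the Col-0 mother. Their median paternal shares were 1.44% with the Bur-0 mother and 2.15% with the Col-0 mother. In log2 ratio BGLU18 lay in the middle, with 417 of the 819 below it and a median of -0.12.

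**Figure D5:**
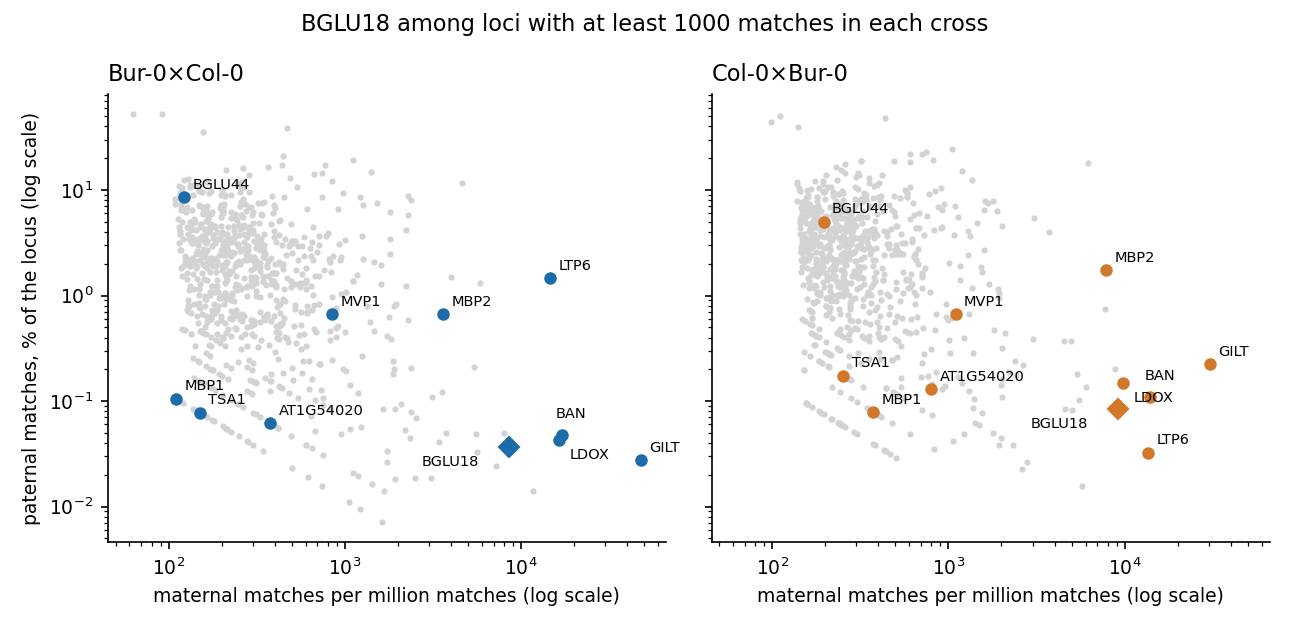
Paternal share in % against maternal matches per 1000000 matches, both on log scales, for the 819 placed loci with at least 1000 matches in each cross, with Bur-0×Col-0 on the left and Col-0×Bur-0 on the right. Each point is a locus and the diamond is BGLU18, at 0.0366% paternal with the Bur-0 mother and 0.0835% with the Col-0 mother, and loci with 0 paternal matches (28 with the Bur-0 mother, 10 with the Col-0 mother) are not drawn.

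Genes that work with BGLU18 or near it were read from the same libraries. Of 5 genes of ER body formation 1 was placed, TSA1 (AT1G52410), which is the next gene to BGLU18 in the TAIR10.1 gene order and encodes a protein related to the ER body protein NAI2. TSA1 lay on chromosome 1 between 19526449 and 19528574 of TAIR8. It had 1291 maternal and 1 paternal match with the Bur-0 mother, and 1715 and 3 with the Col-0 mother, and 3 of its 4 windows were called maternal. The maternal shares of TSA1, 99.9% with the Bur-0 mother and 99.8% with the Col-0 mother, resembled those of BGLU18. Its level was 151 per 1000000 matches with the Bur-0 mother and 253 with the Col-0 mother. As TSA1 was placed from a list selected on parental bias, nothing is read from this likeness. Of 3 further neighbours only AT1G52420 was placed, with 509 maternal and 5 paternal matches with the Bur-0 mother, and 602 and 2 with the Col-0 mother. The matched window nearest to the interval on its lower side, 4192 nt away, had 109 maternal and 7 paternal matches with the Bur-0 mother, and 134 and 8 with the Col-0 mother. That on its upper side, 11 nt away, had 0 matches with the Bur-0 mother and 1 maternal match with the Col-0 mother.

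Of 13 genes of the complex that forms around the related beta-glucosidase PYK10 in roots, 4 were placed. They are the myrosinase-binding protein genes MBP1 (AT1G52040) and MBP2 (AT1G52030), and the GDSL lipase-like genes AT1G54020 and MVP1 (AT1G54030). MBP2 was the most abundant, with 30965 maternal and 208 paternal matches with the Bur-0 mother, and 53133 and 945 with the Col-0 mother, and 36 of its 53 windows were called maternal. Its paternal shares of 0.667% with the Bur-0 mother and 1.75% with the Col-0 mother were above those of BGLU18. MBP1 had 947 maternal and 1 paternal match with the Bur-0 mother, and 2537 and 2 with the Col-0 mother. AT1G54020 had 3234 and 2 with the Bur-0 mother, and 5424 and 7 with the Col-0 mother. MVP1 had 7282 and 49 with the Bur-0 mother, and 7436 and 50 with the Col-0 mother. The log2 ratio per 1000000 matches was negative in all 4, between -1.76 in MBP1 and -0.37 in MVP1, and MBP2 had -1.12. The 819 placed loci with at least 1000 matches in each cross had a median of -0.12, so most of them were negative too. MVP1 stood below that median. It was close to the -0.34 over the windows of all genes, but that is a median of single windows.

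The placed members of the beta-glucosidase family had different maternal shares. Placed loci came from lists selected on maternal or paternal bias, so nothing is read from this difference. Of 47 BGLU genes 3 were placed, BGLU18, BGLU44 and BGLU9, and the others were not analysed here, so this count does not describe the expression of the family. BGLU44 (AT3G18080) had 1054 maternal and 99 paternal matches with the Bur-0 mother, and 1327 and 70 with the Col-0 mother, which are maternal shares of 91.4% (Wilson 95% limits 89.7% and 92.9%) with the Bur-0 mother and 94.99% (93.7% to 96.0%) with the Col-0 mother. Of its 8 windows 7 were called maternal. BGLU9 (AT4G27820) had 156 maternal and 114 paternal matches with the Bur-0 mother, and 113 and 155 with the Col-0 mother, maternal shares of 57.8% (51.8% to 63.5%) with the Bur-0 mother and 42.2% (36.4% to 48.1%) with the Col-0 mother. None of its 9 windows was called maternal, beside the same 32.1% of all windows. In BGLU9 the Bur-0 allele had more matches than the Col-0 allele in both crosses.

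Marker genes of seed tissues were read in the same way. Of 6 seed coat genes 4 were placed, all of the proanthocyanidin pathway. They include BAN and LDOX. TT12, a transporter gene, had 3988 maternal and 0 paternal matches with the Bur-0 mother, and 4091 and 2 with the Col-0 mother. TT8, a gene of a bHLH regulator, had 2282 and 2 with the Bur-0 mother, and 1867 and 3 with the Col-0 mother. Over the 4 genes the maternal share lay between 99.9% and 100% with the Bur-0 mother and between 99.8% and 99.95% with the Col-0 mother, a range that contained both BGLU18 shares. Nothing is read from this, since a gene could be placed only if the study listed it for maternal or paternal bias. Of 5 endosperm genes 3 were placed, and they spread widely. PHE1, a MADS-box gene, had 2 maternal and 54 paternal matches with the Bur-0 mother, and 33 and 50 with the Col-0 mother. ALE1, a subtilisin protease gene, had 283 and 86 with the Bur-0 mother, and 71 and 12 with the Col-0 mother. AT3G25260 had 5562 and 2 with the Bur-0 mother, and 1757 and 1 with the Col-0 mother. The study counts PHE1 and AT3G25260 among known imprinted genes, which are expressed by parent of origin. They do not stand for endosperm genes in general, nor does ALE1, since placed loci came from lists selected on maternal or paternal bias. Only AT3G25260 had maternal shares like those of the seed coat genes, 99.96% with the Bur-0 mother and 99.94% with the Col-0 mother. ALE1 had 76.7% and 85.5%. Because of AT3G25260 the maternal share alone did not separate the lists, and the tissue in which BGLU18 was transcribed was not tested.

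The loci most like BGLU18 were found by the distance between the log2 counts per 1000000 matches, plus 0.5, of the 4 parental alleles over the 2 libraries. The nearest of the other placed loci was DELTA-VPE (AT3G20210), a gene of a vacuolar processing enzyme, at a distance of 0.69. It had 68699 maternal and 34 paternal matches with the Bur-0 mother, and 40902 and 56 with the Col-0 mother. AT4G15750 followed at 1.40, with 61629 and 15 with the Bur-0 mother, and 59944 and 122 with the Col-0 mother. LDOX, the leucoanthocyanidin dioxygenase gene, followed at 1.68, with 142139 and 61 with the Bur-0 mother, and 66672 and 99 with the Col-0 mother. TT7, a flavonoid hydroxylase gene, stood at 1.80, and MLP423, a gene of the major latex protein family, at 1.96. The order of the last of these rests on small differences, since BAN stood at 1.96 too.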

How the data were processed

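The authors took windows of 71 nt of the TAIR8 sequence centred on homozygous SNPs of Bur-0, in a version for each allele, and matched the 36-nt reads to them with vmatch, allowing 2 mismatches over the whole read and keeping matches unique in the set of windows. The version of vmatch is not given in the sources used here. The deposited files list 1 match per line, with window, start, orientation and read, and hold no normalized values. They were turned here into the count of matches per window, allele and lane, with lanes summed per cross. Near-identical copies of a gene that lack SNPs are not in the set of windows, so reads from a paralog could be listed at BGLU18.

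Windows were tested as described, with q = p times the number of windows over the rank. Other loci were taken as the run of neighbouring windows whose 4 summed counts equal those listed by the study, if unique on the chromosome (the maternal list was read only in its part with the lowest q-values), and their counts therefore equal the listed ones by construction. The run of BGLU18 by this rule was met by 2 runs that differ in shallow end windows, and the interval above was used. Symbols and gene order came from TAIR10.1. Named genes were the neighbours, the lists above, the 4 deepest maternal loci and the 5 nearest loci. The gene, the lists and the blocks of windows were chosen with earlier results of these data known. FWA, and the listed genes not named, were not analysed here. Alternatives changed the counting of reads, windows, lanes, scaling, null ratio and distance. Tests were run in SciPy 1.17.1 under Python 3.11.15, with tables in pandas 2.3.3 and NumPy 2.4.6 and plots in Matplotlib 3.10.9. The window test and the placement of loci were tested on simulated data, and the other steps were not.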

Additional observations from a re-analysis of the deposited data

How the results depend on the processing

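The maternal share of BGLU18 stayed above 98% under every alternative tried. Counting a start and orientation once per lane gave 99.3% with the Bur-0 mother and 98.6% with the Col-0 mother. The share with the Bur-0 mother was 99.944% in windows free of a further matched SNP within 35 nt. The share with the Col-0 mother was 99.829% in the window with the most matches alone. The log2 ratio of maternal matches per 1000000, Bur-0×Col-0 over Col-0×Bur-0, was -0.10 and reversed to 0.19 with starts counted once per lane, 0.62 in the deepest window alone, 0.25 without scaling and 0.25 scaled by the median ratio over windows. It moved to -0.47 in windows with no close SNP, -0.19 without the deepest window and -0.20 with each read counted once in the gene. Of the alternatives chosen after seeing the data, scaling to the highest read numbers of the lanes reversed it to 0.16, reads with 1 matched SNP gave -0.57 and a share with the Col-0 mother of 99.939%, and the second sequencer alone gave -0.12, with shares of 99.980% with the Bur-0 mother and 99.958% with the Col-0 mother. Leaving out one lane of each cross gave log2 ratios of -0.10 to -0.09 and shares of 99.959% to 99.971% with the Bur-0 mother and 99.906% to 99.936% with the Col-0 mother. The call counts stayed within 1.5 times of the main ones, with 17 to 19 BGLU18 windows and 32300 to 59219 windows in all. Of the 5 nearest loci, 4 were shared with a pseudocount of 1 and 3 with the maternal alleles only. Beyond what each alternative changes by construction, the cause was not tested. No paired analysis was possible because each cross has 1 library. With 27 and 52 paternal matches, the depth limits any statement on the paternal allele of BGLU18, and the shares of the crosses cannot be separated from how reads were matched. The files number more reads with the Bur-0 mother than the study states, so a level per sequenced read is uncertain.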
